A study of Mus musculus with 10 samples.

Results

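Genes for the proteins of the large subunit of the cytoplasmic ribosome were followed in the H3K27me3 peak lists of a mouse B-cell lymphoma and its drug-resistant derivatives. The genes were taken by symbol from a list of 46, of which 45 were found among the 22380 protein-coding genes of the mm9 GENCODE annotation. Rpl41 was the 1 listed symbol not found there, and its values are given apart from the counts. For each gene, the bases lying in distinct peaks were added up in the 2 kb upstream and in the 2 kb downstream of the transcription start site (TSS), taken as the 5′ end of the annotated gene. A gene was called covered on a side when at least 150 bp of that side, 3 bins of 50 bp, lay in peaks.

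The peak lists came from 5 lines. The parental line was a B-cell lymphoma from C57BL/6J mice that carried the Eμ-Myc transgene, in which the immunoglobulin heavy-chain enhancer drives Myc in the B lineage, and was Cdkn2a-/-. Its 4 derivatives, named R100, R500, R1000 and R4000 after their dose, were raised from that 1 parental line in mafosfamide, an alkylating agent of the cyclophosphamide type. They are labelled with 100, 500, 1000 and 4000 nM and with day 10, 18, 23 and 37, so dose and time in culture cannot be told apart. All 5 lines shared both alleles, and cells for the immunoprecipitation were grown without mafosfamide. Values for the 4 resistant lines are given in the order of their doses. There was 1 list per line, so no test between lines was possible, and any difference between them is a difference between these lists.

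The large subunit joins amino acids into the growing chain at its peptidyl transferase centre, holds the exit tunnel through which the chain leaves, and recruits translation factors through its stalk. Its proteins are made in nearly equal amounts in dividing cells, and Myc is a known activator of their genes. H3K27me3, trimethylation of lysine 27 of histone H3, is written by the polycomb repressive complex PRC2 and is best known for broad domains over silent developmental genes.

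The lists held 10778 distinct peaks in the parental line and 25180, 21888, 9595 and 6820 from R100 to R4000, and the median peak was 100 bp wide in each. They covered 1.63, 5.04, 4.53, 1.61 and 1.07 Mb in that order. The files hold positions only, so the depth of each library and the height of each peak are unknown. Peaks do not measure expression, so the labelled cell type was not checked here.

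Downstream of the TSS, large-subunit genes were covered in a larger share than protein-coding genes at large in every line. In the parental line 6 of the 45 genes were called (13.3%, Wilson 95% interval 6.26 to 26.2), where 3.84% of all protein-coding genes were. The count was 33 genes in R100 (73.3%, 59.0 to 84.0) and 30 in R500 (66.7%, 52.1 to 78.6), beside 14.2% and 10.8% of all genes. It was 20 genes in R1000 (44.4%, 30.9 to 58.8) and 22 in R4000 (48.9%, 35.0 to 63.0), beside 5.14% and 4.05% of all genes. The parental count moved with the threshold, to 15 genes at 50 bp (6.1% of all genes) and 2 at 300 bp (2.4%). At 50 bp R1000 had 31 (9.63%), and at 300 bp R4000 had 10 (2.25%). The intervals cover counting of genes only, and genes are not replicates of a line.

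Fewer members were covered upstream of the TSS than downstream. Upstream calls numbered 2 in the parental line and 2, 4, 1 and 0 from R100 to R4000. As shares these were 4.44%, 4.44%, 8.89%, 2.22% and 0%, beside 2.68%, 7.61%, 6.71%, 3.25% and 2.19% of all genes. The member share was thus above that of all genes in the parental line and R500 and below it in the other lists. Of the 45 genes, 39 had no covered base upstream in any line, a tally that was not made over all genes. Taking the 2 sides together gave 7, 33, 31, 20 and 23 called genes, with 5.25%, 17.4%, 13.3%, 6.92% and 5.5% of all genes. Of the covered bases of members on the 2 sides, 450 of 2650 lay upstream in the parental line, 400 of 18100 in R100, 800 of 16050 in R500, 250 of 9350 in R1000 and 50 of 8900 in R4000. Over all genes this was 280516 of 718135 in the parental line, 935244 of 2775627 in R100 and 846974 of 2377903 in R500. It was 338045 of 940317 in R1000 and 232247 of 674954 in R4000.

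In bases, the 45 downstream windows held 2200 covered bp in the parental line and 17700, 15250, 9100 and 8850 from R100 to R4000. Relative to the parental list this was 8.05, 6.93, 4.14 and 4.02 times as many, whereas the same windows of all protein-coding genes held 4.21, 3.5, 1.38 and 1.01 times as many. The median member had 0, 350, 250, 100 and 100 covered bp. The resistant lists with fewer peaks than the parental list, R1000 and R4000, thus still held more covered bases at these genes. Downstream windows of members made up 0.135% of all bases in the parental list and 0.351%, 0.336%, 0.564% and 0.824% from R100 to R4000. Those of all protein-coding genes made up 26.3%, 35.8%, 33.1%, 36.7% and 40.3%, so their share was also higher in each resistant list than in the parental list. When each list was reduced to its 6820 widest peaks, 5, 29, 25, 19 and 22 members were called, beside 3.58%, 9.98%, 8.61%, 4.86% and 4.05% of all genes.

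**Figure D1:**
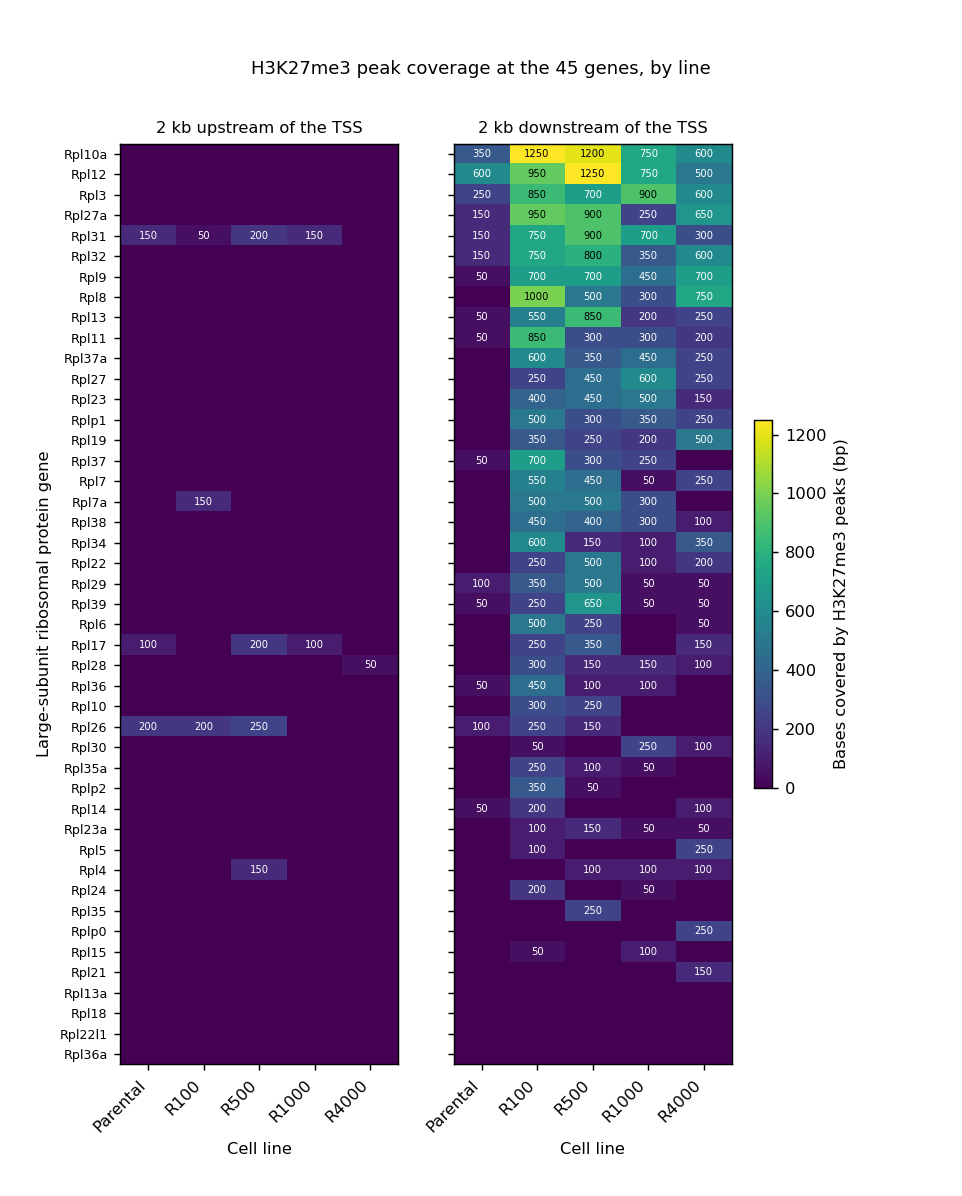
Bases covered by H3K27me3 peaks in the 2 kb upstream (left) and downstream (right) of the TSS of each of the 45 genes (rows, ordered by their downstream sum) in each of the 5 lines (columns); colour and printed value give bp, and blank cells are 0. Downstream values fill most of the R100 and R500 columns and reach 1250 bp, while 6 genes have any value upstream.

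Set against the parental list, which all 4 comparisons share, members gained downstream calls in each resistant line. In R100, 27 members were called downstream that were not called in the parental line, and the count was 24, 14 and 16 in R500, R1000 and R4000. Shares of all genes gained in the same way were 10.6%, 7.11%, 2.13% and 1.72%. No member called downstream in the parental line was missed there in a resistant line, so downstream losses were 0 in each. Only the 6 members called in the parental line could be lost, so few losses were possible. Losses over all genes were 0.143%, 0.156%, 0.827% and 1.51% from R100 to R4000. These were 32, 35, 185 and 338 of the 859 protein-coding genes called in the parental line. In bases, 0, 1, 3 and 5 of the 45 members had fewer downstream bases than in the parental list. Over all genes the counts were 165, 178, 715 and 955 of 22380. A gene can have fewer bases only if it had a parental base downstream, as 15 members and 1380 of all genes did. Among genes with such a base, the share with fewer was lower for members than for all genes in each resistant line. Upstream, the calls lost against the parental list numbered 1, 0, 1 and 2, beside 0.286%, 0.237%, 0.782% and 1.32% of all genes. Between resistant lists, downstream calls went both ways. From R100 to R500, 2 members were gained and 5 lost (1.86% and 5.32% of all genes). From R500 to R1000, 1 was gained and 11 were lost (0.384% and 6.03%), and from R1000 to R4000, 7 were gained and 5 lost (1.17% and 2.26%).

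Sorted by the set of lines in which they were called downstream, 6 members were called in all 5 lines (Rpl3, Rpl10a, Rpl12, Rpl27a, Rpl31 and Rpl32), as were 2.16% of all genes. Another 9 were called in the 4 resistant lines and not in the parental line, namely Rpl8, Rpl9, Rpl11, Rpl13, Rpl19, Rpl23, Rpl27, Rpl37a and Rplp1. Together these 15 genes made up 33.3% of the members, beside 2.84% of all genes called in every resistant line. Rpl7, Rpl17, Rpl22 and Rpl34 were called in R100, R500 and R4000, and Rpl7a, Rpl28, Rpl37 and Rpl38 in R100, R500 and R1000. Rpl6, Rpl10, Rpl26, Rpl29 and Rpl39 were called in R100 and R500 only, Rpl14, Rpl24, Rpl35a, Rpl36 and Rplp2 in R100 only, and Rpl23a and Rpl35 in R500 only. Rpl5, Rpl21 and Rplp0 were called in R4000 only and Rpl30 in R1000 only, so 4 members (8.89%) were called in R1000 or R4000 and in neither R100 nor R500, beside 0.398% of all genes. The remaining 6 members (13.3%) were called downstream in no line, as were 83.4% of all genes.

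Without a call in the parental line, 29 members (64.4%, beside 12.4% of all genes) were called in R100 or R500, and 17 of them were also called in R1000 or R4000 (37.8% of members, beside 2.74% of all genes). Of the 27 members gained in R100, 22 were also called in R500 (81.5%, 63.3 to 91.8), 13 in R1000 (48.1%, 30.7 to 66.0) and 13 in R4000 (48.1%, 30.7 to 66.0). Among all 2362 protein-coding genes gained in R100, the shares also called in those lines were 50.1%, 17.5% and 13.5%.

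Each of the 6 genes called in all 5 lines had an intronic stretch covered in at least 4 of them. The intronic stretch covered in the most lines is printed for each, because these are the bases on which the lists overlap at members. Sequences are of the mm9 genome (NCBIM37), written 5′ to 3′ on the strand of the gene, with each CpG in capitals.
Rpl10a, chr17:28465993-28466150, plus strand, intron 3: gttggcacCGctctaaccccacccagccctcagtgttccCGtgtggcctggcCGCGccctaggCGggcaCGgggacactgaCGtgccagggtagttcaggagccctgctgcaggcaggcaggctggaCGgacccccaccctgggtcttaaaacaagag
Rpl12, chr2:32817751-32817950, plus strand, intron 2: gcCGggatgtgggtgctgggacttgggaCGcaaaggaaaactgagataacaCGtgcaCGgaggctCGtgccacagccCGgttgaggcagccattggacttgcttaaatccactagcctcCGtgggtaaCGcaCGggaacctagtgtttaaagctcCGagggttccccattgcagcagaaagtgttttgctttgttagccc
Rpl3, chr15:79913201-79913450, minus strand, intron 1: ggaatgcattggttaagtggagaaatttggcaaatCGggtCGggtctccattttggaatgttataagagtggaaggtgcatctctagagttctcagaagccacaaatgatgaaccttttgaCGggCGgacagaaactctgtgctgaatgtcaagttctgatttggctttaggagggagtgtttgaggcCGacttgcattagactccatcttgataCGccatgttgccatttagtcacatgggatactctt
Rpl27a, chr7:116663301-116663400, plus strand, intron 2: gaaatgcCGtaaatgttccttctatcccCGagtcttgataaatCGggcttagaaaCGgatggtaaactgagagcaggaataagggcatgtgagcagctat
Rpl31, chr1:39425401-39425550, plus strand, intron 2: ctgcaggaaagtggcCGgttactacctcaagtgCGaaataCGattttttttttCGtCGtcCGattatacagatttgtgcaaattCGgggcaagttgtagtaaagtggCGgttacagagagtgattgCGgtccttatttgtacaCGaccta
Rpl32, chr6:115758251-115758450, minus strand, intron 1: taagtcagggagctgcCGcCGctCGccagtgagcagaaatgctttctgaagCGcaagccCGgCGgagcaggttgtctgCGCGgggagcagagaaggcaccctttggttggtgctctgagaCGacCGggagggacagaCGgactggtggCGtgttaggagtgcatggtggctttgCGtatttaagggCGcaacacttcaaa
Every base printed for Rpl12, Rpl3, Rpl27a and Rpl31 lay in a peak in all 5 lines, and every base printed for Rpl10a and Rpl32 in 4. At Rpl32 the line without a peak there was the parental line. At Rpl10a it was the parental line up to 28466100 and R1000 from 28466101 to 28466150. The stretches hold 8 CpG sites in 158 bp at Rpl10a, 10 in 200 bp at Rpl12, 6 in 250 bp at Rpl3, 4 in 100 bp at Rpl27a, 10 in 150 bp at Rpl31 and 14 in 200 bp at Rpl32. Their GC content ran from 44.0% at Rpl31 to 67.1% at Rpl10a.

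The peptidyl transferase centre and the L1 stalk, the arm that guides the leaving tRNA, were represented by 4 genes. Rpl10a, the protein of the L1 stalk (chromosome 17, 28465416 to 28467977), had 350 covered bp downstream in the parental line and 1250, 1200, 750 and 600 from R100 to R4000. Rpl3, whose protein reaches towards the catalytic centre, had 250, 850, 700, 900 and 600 bp in the same order of lines. In R100 the Rpl10a bases were 1 unbroken peak, the widest at any member in that line.

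Rpl8, a protein close to the catalytic centre, had 0 bp in the parental line and then 1000, 500, 300 and 750 bp. Its R100 peak began 50 bp downstream of the TSS and ended at 1049 bp. Rpl10, whose protein joins the subunit late in its assembly, had none in the parental line, R1000 or R4000, and 300 bp and 250 bp in R100 and R500. All 4 genes of the group were thus called in R100 and R500, and 3 of them in R1000 and R4000. Over the 45 members the shares were 73.3%, 66.7%, 44.4% and 48.9%, and over all genes 14.2%, 10.8%, 5.14% and 4.05%.

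The stalk, which draws elongation factors to the ribosome, comprised Rplp0, Rplp1, Rplp2 and Rpl12. Rpl12, at the stalk base (chromosome 2, 32817079 to 32820016), had 600 bp in the parental line as 1 peak from 572 to 1171 bp downstream of the TSS, the most of any member in that line. In R100, R500, R1000 and R4000 it had 950, 1250, 750 and 500 bp. Another protein-coding TSS, that of Lrsam1, lies within 2 kb of the Rpl12 start.

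The genes of the acidic stalk proteins and of their anchor were covered in different lines. Rplp1 had 0 bp in the parental line and 500, 300, 350 and 250 bp in the resistant lines, and its partner Rplp2 had 0, 350, 50, 0 and 0 bp. Rplp0, the protein that anchors them both, was covered in R4000 alone, with 1 peak of 250 bp from 725 to 974 bp. No line thus covered all 4 stalk genes.

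Rpl5 and Rpl11 bind the 5S ribosomal RNA, and the free particle they form can bind Mdm2, the ubiquitin ligase of p53. Rpl11 had 50 bp in the parental line and 850, 300, 300 and 200 from R100 to R4000. Rpl5 had 0, 100, 0, 0 and 250 bp. Both genes were called in R4000, and Rpl11 alone in the other resistant lines. The 2 peaks at Rpl5 did not overlap, lying at 480 to 579 bp in R100 and at 830 to 1079 bp in R4000.

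The exit tunnel and its rim were represented by Rpl4, Rpl17, Rpl19, Rpl23a, Rpl26, Rpl31, Rpl35 and Rpl39. Of these 8 genes, 1 was called downstream in the parental line and 5, 7, 2 and 3 from R100 to R4000. The 45 members together had 6, 33, 30, 20 and 22 called, and shares of all genes were 3.84%, 14.2%, 10.8%, 5.14% and 4.05%. No test between groups was made. Rpl31, at the rim (chromosome 1, 39424696 to 39428753), had 150, 750, 900, 700 and 300 bp downstream. It also had 150, 50, 200, 150 and 0 bp upstream, the only member with upstream bases in 4 lines.

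Rpl26, also at the rim and known to bind p53 mRNA, was the other member called upstream in more than 1 line. Its upstream window held 200 bp in both the parental line and R100, 250 bp in R500 and none in R1000 and R4000, in a peak that began at -1534 bp from the TSS in all 3 lists. Downstream it had 100, 250, 150, 0 and 0 bp. Rpl26 thus lost its bases on both sides in the 2 lines with the highest labelled doses.

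Rpl17, which lines the tunnel, had 100, 0, 200, 100 and 0 bp upstream and 0, 250, 350, 0 and 150 bp downstream. Rpl4, which also lines it, had 0, 0, 100, 100 and 100 bp downstream and 150 bp upstream in R500 alone, with the TSS of Zwilch within 2 kb. Rpl7a had 150 bp upstream in R100 alone, with the TSS of Med22 within 2 kb, and Rpl28 had 50 bp upstream in R4000 alone. These are all of the upstream bases found at members.

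Rpl22 and Rpl22l1 are paralogs whose proteins can stand in for one another. Rpl22 had 0 bp in the parental line and 250, 500, 100 and 200 from R100 to R4000, and Rpl22l1 had 0 bp in each of the 5 lines. Rpl22 thus held more covered bases than Rpl22l1 in each resistant line, but in R1000 neither gene was called.

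Among the 25 members outside these groups, 2 were called in the parental line and 19, 15, 12 and 10 from R100 to R4000. Of all 45 members, 6, 33, 30, 20 and 22 were called, and of all genes 3.84%, 14.2%, 10.8%, 5.14% and 4.05%. Rpl27a had 150, 950, 900, 250 and 650 bp and Rpl32 had 150, 750, 800, 350 and 600 bp. These were the members of the group called in the parental line. Rpl9, near the site where elongation factors act, had 50, 700, 700, 450 and 700 bp, with the TSS of Lias within 2 kb. Rpl23, another protein known to bind Mdm2, had 0, 400, 450, 500 and 150 bp.

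Several members with no parental base had a different resistant line at the top. Rpl27 had 250, 450, 600 and 250 bp from R100 to R4000, most in R1000, and Rpl19, a protein of the tunnel rim, had 350, 250, 200 and 500 bp, most in R4000. Rpl37a had 600, 350, 450 and 250 bp and Rpl38, known for its part in the translation of Hox mRNAs, had 450, 400, 300 and 100 bp, both most in R100. Rpl13, with 50 parental bp, had 550, 850, 200 and 250 bp, most in R500. Rpl39, a small protein lining the tunnel, also had 50 parental bp and its most in R500, with 250, 650, 50 and 50 bp. At the low end, Rpl35 was covered in R500 alone (250 bp) and Rpl21 in R4000 alone (150 bp).

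Called on neither side in any line were Rpl13a, Rpl15, Rpl18, Rpl22l1 and Rpl36a. Rpl15 had 50 bp in R100 and 100 bp in R1000, and the other 4 had 0 bp throughout. The values of Rpl13a and Rpl18 depended on the start used. Their annotated 5′ ends lie 7672 and 2614 bp upstream of the RefSeq starts, which were found in mm9 by an exact match of the RefSeq promoter sequences. From the RefSeq start, Rpl13a had 200, 1250, 750, 500 and 550 bp downstream and Rpl18 had 100, 550, 450, 450 and 400 bp. RefSeq starts were found for 35 of the listed genes, Rpl41 included. With them, 7, 35, 32, 22 and 24 of the 45 members were called, and the changes were all at Rpl13a and Rpl18. Rpl41, located in the same way on chromosome 10 at 127986224, minus strand, had 0, 300, 250, 200 and 400 bp downstream and 0 bp upstream.

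**Figure D2:**
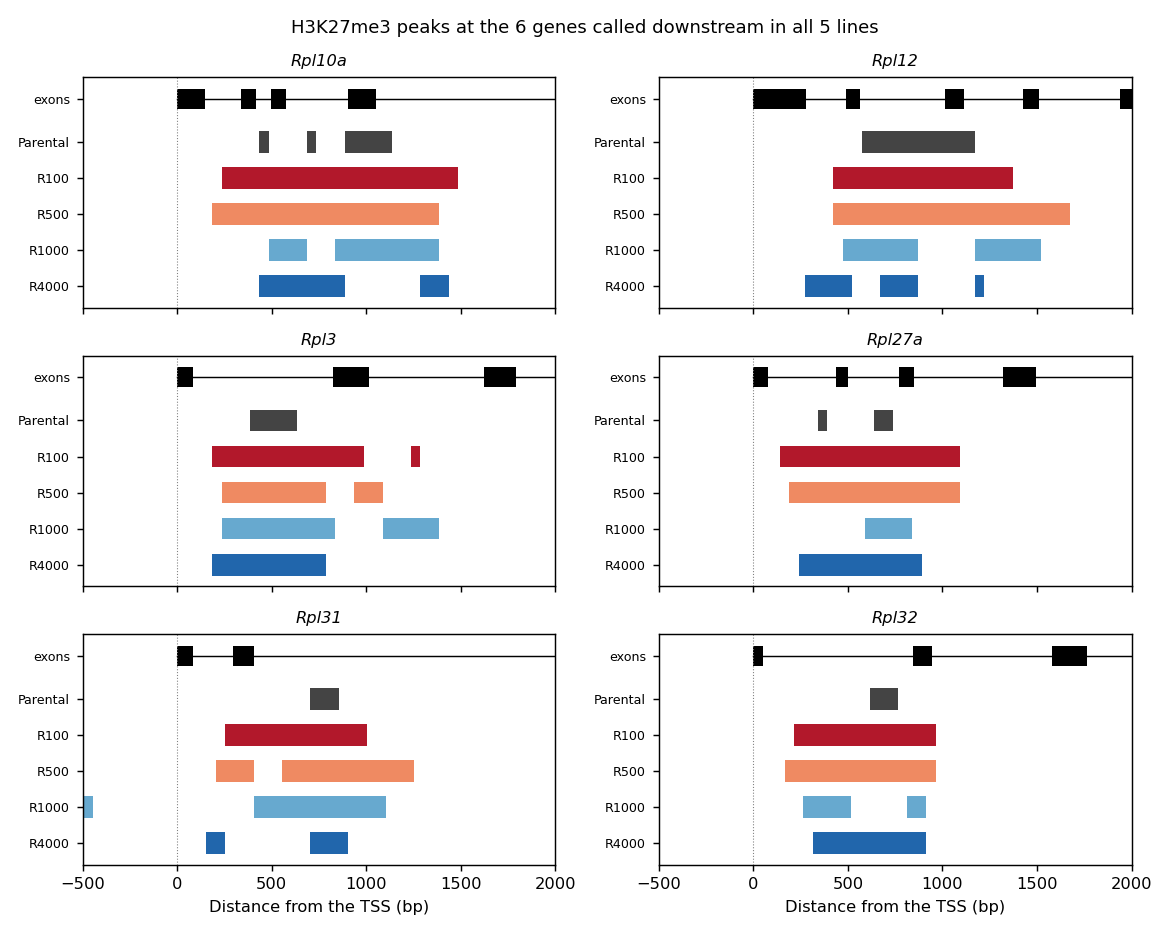
Peaks (coloured bars, 1 row per line) and exons (black boxes joined by a line) from 500 bp upstream to 2000 bp downstream of the TSS of the 6 genes called in all 5 lines; the horizontal axis is the distance from the TSS in bp. The 600-bp parental peak at Rpl12 and the 1250-bp R100 peak at Rpl10a are the widest at any of the 45 members in their lines, and many bars span both exons and introns.

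Members varied in which line held the most covered bases. Of the 41 with any, 0 had most in the parental list, and 19, 10, 5 and 4 had most in R100, R500, R1000 or R4000, and 3 were tied. The R100 and R500 lists also cover the most bases over the whole genome, 5.04 and 4.53 Mb. This tally was not made over all genes, so it is not shown to be particular to members. The members with the most bases in R100 and R500 together were Rpl10a, Rpl12, Rpl27a, Rpl31 and, tied with each other, Rpl3 and Rpl32. In peaks rather than bases, the downstream windows held 18 peaks in the parental line and 49, 47, 40 and 37 from R100 to R4000. Their median width was 50 bp in the parental line and 250, 250, 175 and 200 bp in the resistant lines, and the widest measured 600, 1250, 1250, 700 and 750 bp.

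The covered bases lay mostly within the first 1500 bp of the window. A bin of 50 bp was counted as covered when at least 25 bp of it lay in peaks. In R100 the bin covered in the most members lay 400 to 449 bp downstream of the TSS and was covered in 26 of them (57.8%), whereas over all protein-coding genes the highest bin lay at 250 to 299 bp and was covered in 7.74%. The highest member bin lay at 350 to 399 bp in R500 (48.9%) and at 600 to 649 bp in R1000 (35.6%). In the parental line the bins starting at 600 and 700 bp were tied (11.1%), and in R4000 those starting at 600, 650, 750 and 800 bp (33.3%). In the first 250 bp after the TSS an average bin was covered in 0% of members in the parental line and 14.2%, 7.99%, 4.88% and 4.44% from R100 to R4000. From 1500 to 1999 bp the average was 0.888% in R500 and 0% in the other 4 lines. Past 1500 bp, peaks at members reached 1671 bp at Rpl12 and lay at 1597 to 1646 bp at Rpl39 in R500, and in R1000 they ended at 1521 bp at Rpl12 and at 1504 bp at Rpl15.

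**Figure D3:**
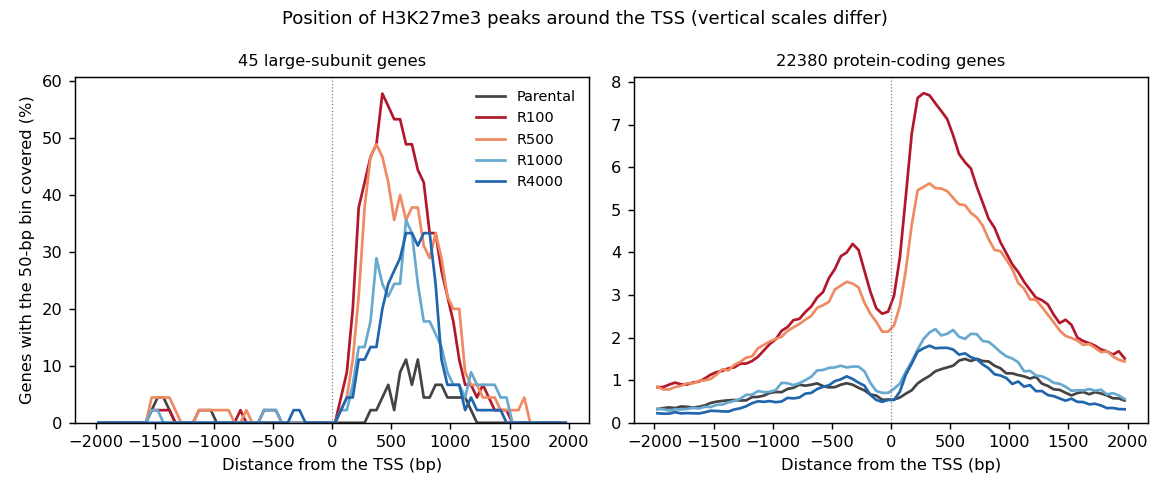
Share of the 45 members (left) and of all 22380 protein-coding genes (right) with each 50-bp bin covered by a peak (vertical axes in %, with different scales), against distance from the TSS in bp, 1 line per cell line. At members the curves rise after the TSS to 57.8% in R100 and stay near 0 upstream, while over all genes the R100 curve reaches 7.74% and has a second, lower rise upstream.

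Ribosomal protein genes have many processed copies in the genome, so exons and introns were measured apart. Introns made up 76.5% of the exonic and intronic bases in the downstream windows and 84.2%, 81.5%, 80.5%, 82.6% and 85.3% of the covered bases from the parental line to R4000. Exon bases were covered at 1.69%, 15.9%, 14.4%, 7.7% and 6.3%, and intron bases at 2.77%, 21.5%, 18.3%, 11.2% and 11.3%. Of exon bases, 66.5% begin a 50-base word found once in the genome, and of intron bases 98.9% do, a word as long as the reads. Among intron bases that begin such a unique word, 2.79%, 21.7%, 18.4%, 11.2% and 11.4% were covered. Among these bases too, coverage was higher in R100 and R500 than in the parental list. Only exact words were counted, so near-identical copies were not measured. Many peaks span exons and introns together, and how repeated reads were placed is not known. Whether processed copies had a part in the coverage was not tested. In the 76 annotated pseudogenes named by a member symbol followed by -ps, with 40173 bp in all, 0 bases were covered in any line. How much of these copies occurs once in the genome was not measured, so this 0 does not show that they lack signal.

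**Figure D4:**
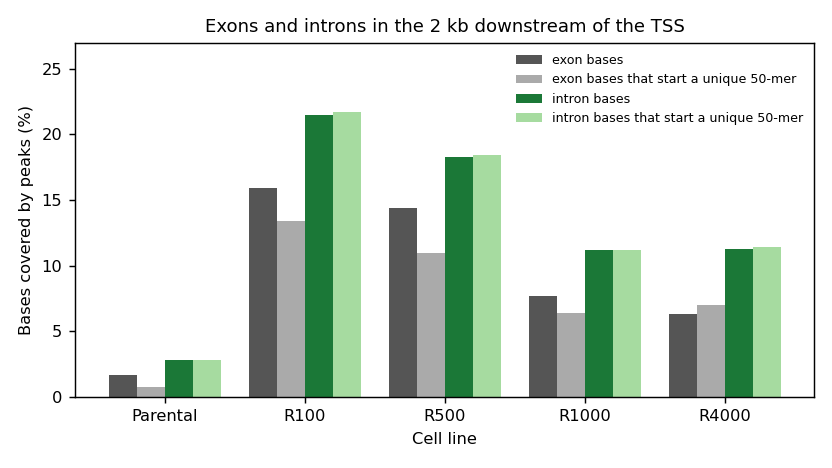
Percent of exon and intron bases covered by peaks in the 2 kb downstream of the TSS of the 45 members, by line, over all bases (dark bars) and over bases that begin a 50-base word found once in the genome (light bars). Intron bars are taller than exon bars in every line, and the dark intron bar reaches 21.5% in R100. Exons and introns were not matched for distance from the TSS.

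Lists of different resistant lines covered many of the same bases at members. R100 and R500 shared 52.9% of the bases covered in either, where the whole lists shared 34.4%. The parental line shared less at members than over whole lists, with 11.8%, 11.9%, 11.9% and 11.1% from R100 to R4000 beside 15.4%, 17.9%, 21.3% and 17.6%. R100 shared 35.4% with R1000 and 30.1% with R4000 (19.2% and 14.2% over whole lists). R500 shared 34.5% with R1000 and 27.2% with R4000 (21.3% and 15.7%), and R1000 shared 25.5% with R4000 (22.1%). Of the 2200 parental bases at members, R100 covered 2100 (95.5%), R500 1850 (84.1%), R1000 1200 (54.5%) and R4000 1100. All of these shares move with how much each list covers. With 2200 parental bases beside 17700 in R100 and 15250 in R500, the parental shares with these lines could not reach those of the whole lists.

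Small-subunit genes, the counterpart of the members in the same ribosome, gave similar counts. Of 33 found, 2 were called downstream in the parental line and 23, 24, 15 and 18 from R100 to R4000, or 6.06%, 69.7%, 72.7%, 45.5% and 54.5%. Each interval overlapped that of the large subunit. Genes of the mitochondrial large subunit, which do the same work in the mitochondrion, were called in 0, 9, 1, 0 and 1 of 47. Large-subunit assembly factors, nucleolar proteins and export factors that build the particle, were called in 0, 9, 6, 4 and 1 of 29. In the 4 resistant lines the intervals of both of these lists lay below that of the large-subunit genes, and in the parental line they overlapped it. No test between lists was made.

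**Figure D5:**
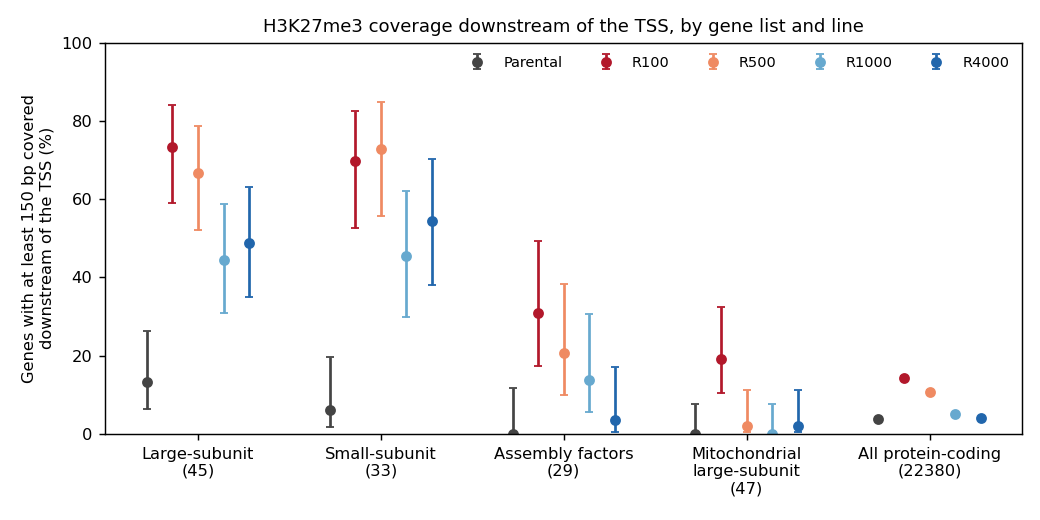
Share of genes with at least 150 bp covered downstream of the TSS (vertical axis, %) in 4 gene lists and in all protein-coding genes, by line; points are shares and bars are Wilson 95% intervals for counting only. The 4 resistant lines stand between 44.4% and 73.3% for large-subunit genes and between 0% and 31.0% for the mitochondrial and assembly lists.

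What members share in sequence was described over the first 1000 bp after the TSS. Their median GC content was 57.2% and they held a median of 63 CpG sites, where small-subunit genes had 54.9% and 59, mitochondrial large-subunit genes 52.0% and 45, and all protein-coding genes 53.4% and 34. The 23 members called in 3 or more lines had a median of 65 CpG sites, the 16 called in 1 or 2 lines 62, and the 6 called in none 32, among them Rpl13a and Rpl18 with their distant 5′ ends. Across the 45 members, which share each library, Spearman's rho between GC content and covered bases was 0.29 in R100 and 0.3 in R500, R1000 and R4000. Whether base composition had a part in the coverage was not tested.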

How the data were processed

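H3K27me3 ChIP-seq of 5 lymphoma lines was analysed. The authors set immunoprecipitated against input reads in windows along the genome and called peaks by a Poisson model. The deposited files are 1 peak list per line and give only chromosome, start and end in base pairs. Bowtie and mm9 are credited to the submitters' processing notes. The threshold of the lists and whether replicates were pooled are not given in the sources used here. RRBS was not analysed here, and coverage at B-cell marker genes is not reported here. Each peak of R100 and of R500 is entered 2 times and was counted once. No peak lay beyond a chromosome end of NCBIM37 (0 in each list).

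Covered bases were added up with numpy 2.4.6 and pandas 2.3.3 under Python 3.11.15; rank correlations came from scipy 1.17.1 and plots from matplotlib 3.10.9. Tested on simulated data, 0 of 1000 windows differed from a base-by-base count and 0 of 19951 words of 50 bases from a comparison by letters. The members, comparison lists and thresholds were chosen with earlier results of these data known. Of 34 small-subunit symbols 33 were found, and of 31 assembly-factor symbols 29. Values in every line are written out for members called downstream in all 5 lines or in the parental line, called on neither side in any line, among the 5 highest downstream in R100 and R500 or upstream in any line, or in the stalk, 5S and paralog groups; other members with values were chosen after their values were seen. Alternatives were the bases needed for a call, the window, the peaks used, the TSS and neighbouring genes. RefSeq starts (promoter sequences of GRCm38.p6) were added after seeing the data. Each line has 1 list, so no test was made.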

Additional observations from a re-analysis of the deposited data

How the results depend on the processing

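Counts were recomputed under 8 other settings and 1 added after seeing the data (RefSeq starts). Of 181 values, 156 stayed within 1.5 times the reported count, or close to the reported intron share, and 25 did not. Most of these are counts of 5 or fewer, and the cause was not tested. With at least 50 bp for a call, downstream counts became 15 in the parental line and 31 in R1000 (6.1% and 9.63% of all genes), counts on the 2 sides together 16 and 32 (8.24% and 12.5%), and upstream counts 2 in R1000 and 1 in R4000 (6.09% and 5.05%). With at least 300 bp, downstream counts became 2 in the parental line and 10 in R4000 (2.4% and 2.25%), counts on the 2 sides together 4 and 10 (3.5% and 3.12%), members gained in R4000 8 (0.804%), and upstream counts 0 in each list that had any (1.52%, 4.71%, 4.32% and 1.77%). With 1 kb on each side, upstream counts became 0 in the parental list and 1 in both R100 and R500 (1.99%, 6.7% and 5.67%), and the intron share of covered bases 89.3% in the parental line and 80.8% in R100. With 5 kb, upstream counts became 4 for the parental list, 5 for R100 and 1 for R4000 (3.64%, 9.13% and 2.73%). The upstream count in R100 became 1 with equal numbers of the widest peaks (5.49%) and 1 (6.9%) among the 37 members with no other protein-coding TSS nearby. No paired analysis was possible because each line has 1 list and no result comes from a test. Depth is unknown, so a base outside the peaks of a list is not shown to lack the mark, and differences between lists in number of peaks cannot be told apart from differences in depth.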

Other observations

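Apart from the 76 pseudogenes, 40 entries named as copies of large-subunit genes are annotated as protein-coding. Over their 21248 bp, 1 of them, Rpl12-ps1, had at least 50 covered bp, in R100 alone. Narrow peaks made up a changing share of those at members: 55.6% of the parental peaks downstream of the TSS were 50 bp wide, against 20.4%, 10.6%, 17.5% and 16.2% from R100 to R4000, where the whole lists had 37.1%, 31.2%, 30.6%, 33.9% and 35.1%. Peaks of at least 500 bp at members numbered 1, 16, 11, 5 and 5 in the same order. Peaks of that width were not counted over the whole lists, so these numbers are not shown to be particular to members.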
